A study of Mus musculus with 20 samples.

Results

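Growth hormone pulse-repressed genes are liver genes that the male pattern of pituitary growth hormone keeps low. The members were the probe sets listed in the platform annotation under any of 9 gene symbols: Cux2, A1bg, Fmo2, Hao2, Prom1, Tox, Atp6v0d2, Abcd2 and Cyp17a1. They came to 20 of 45037 probe sets and to 8 of the 9 genes, since A1bg had no probe set in the annotation used here and was not analysed here. Fmo2 had 5 probe sets, Abcd2 had 4, Cux2 and Tox had 3 each, Atp6v0d2 had 2, and Cyp17a1, Hao2 and Prom1 had 1 each.

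Livers of 20 mice were used, all males of the outbred CD-1 stock, in 4 groups of 5. The treated groups received phenobarbital sodium (PB) at 80 mg/kg/day by mouth for 28 or 90 days, and the vehicle groups received methylcellulose (CMC) for the same 28 or 90 days. Phenobarbital is a sedative that activates the constitutive androstane receptor of hepatocytes. Each mouse gave 1 array of left lateral lobe RNA, taken on the day after the last dose, and the values are log2 intensities made by the authors with RMA. No female or growth hormone-manipulated liver was among these groups, so the hormone control named by the rule was not measured, and the ages of the mice were not given in the labels.

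In male rodents growth hormone is released in pulses, and in females more evenly. Each pulse activates the transcription factor STAT5b in hepatocytes, which raises a male set of genes and, with repressors such as BCL6, holds down a set that is more abundant in female liver. The homeobox repressor CUX2 is itself made mainly in female mouse liver, where it lowers male genes. The other members include enzymes of lipid and steroid metabolism (Hao2, Cyp17a1), a flavin monooxygenase (Fmo2), a peroxisomal transporter (Abcd2) and a proton pump subunit (Atp6v0d2). The rest are a membrane glycoprotein (Prom1), a nuclear factor best known in T cells (Tox) and the plasma protein gene A1bg.

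RefSeq start-site windows of build GRCm38.p6, from 250 bases before to 50 bases after a gene's start, were found for 5 of the 9 genes, in 8 windows. The 3 shown are those of the member with the largest difference under phenobarbital (Prom1), the member that varied most between livers (Hao2) and a measured member whose window held a STAT5-type motif (Fmo2). Capitals mark the STAT5-type motif TTCNNNGAA, which reads the same on both strands, and the nuclear receptor site AGGTCA, searched on both strands. The 2 motifs did not overlap in either window that held both, and no capitals in a window says only that these letters are not in it. They are the windows of Prom1 at chr5:44101687-44101986, of Hao2 at chr3:98893181-98893480 and of Fmo2 at chr1:162898444-162898743, all on the minus strand and written 5′ to 3′.
Prom1: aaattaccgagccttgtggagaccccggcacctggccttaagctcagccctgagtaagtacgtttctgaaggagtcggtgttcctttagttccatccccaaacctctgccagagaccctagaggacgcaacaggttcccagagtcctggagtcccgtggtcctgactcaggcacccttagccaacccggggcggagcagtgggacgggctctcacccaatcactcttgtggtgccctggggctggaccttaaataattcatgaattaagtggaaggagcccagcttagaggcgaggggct
Hao2: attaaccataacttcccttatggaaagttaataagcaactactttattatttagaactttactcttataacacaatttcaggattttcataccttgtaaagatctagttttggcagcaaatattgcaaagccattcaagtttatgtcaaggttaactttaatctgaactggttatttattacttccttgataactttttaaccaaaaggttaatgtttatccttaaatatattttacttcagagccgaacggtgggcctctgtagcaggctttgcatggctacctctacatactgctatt
Fmo2: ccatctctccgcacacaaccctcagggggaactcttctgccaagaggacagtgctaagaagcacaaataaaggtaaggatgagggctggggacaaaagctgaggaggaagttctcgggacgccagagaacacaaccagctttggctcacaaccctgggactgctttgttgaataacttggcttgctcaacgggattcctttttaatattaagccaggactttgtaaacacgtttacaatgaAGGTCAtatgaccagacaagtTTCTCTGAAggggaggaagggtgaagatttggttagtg
The motif TTCNNNGAA was in 2 of the 8 member windows, 1 of Fmo2 and 1 of A1bg, and in 8.30% of all 32851 windows of this length. AGGTCA was in the same 2 windows and in 16.3% of all windows. In the Fmo2 window the STAT5-type motif began 12 bases after the annotated start.

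The labelled tissue was checked first. The 5 measured hepatocyte markers of 6 listed (Alb, Apoa1, Ttr, Serpina1c and Fgb) lay above the 99.9th percentile of the arrays, with mean levels between 14.47 and 15.12. Cyp2b10, the usual reporter of receptor activation, averaged 10.93 ± 1.12 in PB livers and 6.03 ± 1.34 in CMC livers at 28 days, and 11.70 ± 0.67 in PB livers and 5.82 ± 1.11 in CMC livers at 90 days (SD, n = 5 each). PB replicate 5 at 28 days and PB replicate 3 at 90 days stood apart on the first principal component, with scores of -149 and -94.4 against -56.7 for the next array. Their 25th percentiles, taken here as the background level, were 4.26 and 4.12, against 3.96 to 4.11 on the other 18 arrays, so dim probe sets read higher on the first of them. Values without one of them are given where its removal turned the sign of a member's brightest probe set at that duration. The same holds where it moved the difference over 1.5 times, except that for Hao2 at 90 days only the direction is given.

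The members ranged from dim to moderately bright in these male livers. Their brightest probe sets had mean percentile ranks on the arrays from 33.4 (Abcd2) and 34.4 (Tox) to 75.5 (Cux2). In the 10 vehicle livers, the brightest probe sets lay between 0.25 (Abcd2) and 2.97 (Cux2) log2 units above the background of the same arrays. Those of Cux2, Fmo2, Atp6v0d2, Cyp17a1, Prom1 and Hao2 exceeded the background in 20 of 20 livers, that of Tox in 19 and that of Abcd2 in 15. The 3 Cux2 probe sets did not give the same picture. One averaged 7.06 over the 20 livers, and the others averaged 4.21 and 3.43, the last of them above the background in 0 of 20 livers. Near background, RMA values move less than the RNA does, so changes of dim probe sets are imprecise in size.

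No member was called in any comparison. Limma with Benjamini-Hochberg adjustment over all probe sets called 0 of 20 member probe sets for PB against CMC at 28 days, where 0.0244% of all probe sets were called. At 90 days it called 0 of 20 (0.0511% of all), and 0 of 20 for the mean of both durations (0.0955% of all). For the difference between the 2 durations and for vehicle livers at 90 against 28 days it called 0 of 20 members and 0 probe sets in all. At an unadjusted p under 0.05 in limma, 3 member probe sets (of Prom1, Atp6v0d2 and Abcd2) were higher under PB at 28 days, where 2.12% of all probe sets were. At 90 days 1 was (Prom1), where 3.2% of all were, and for the mean of both durations 4 were (the same genes, 2 of the probe sets of Atp6v0d2), where 4.31% of all were. In these comparisons 0 members were lower, where 0.904%, 1.49% and 1.91% of all probe sets were. For the difference between durations 0 members passed in either direction, where 1.1% of all passed upward and 0.726% downward. The member groups overlapped for every probe set in both PB comparisons, while 0.406% of all probe sets at 28 days and 0.659% at 90 days were higher without overlap, and 0.173% and 0.366% were lower. In whole liver RNA, fewer cells of a type and less RNA per cell cannot be told apart.

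**Figure D1:**
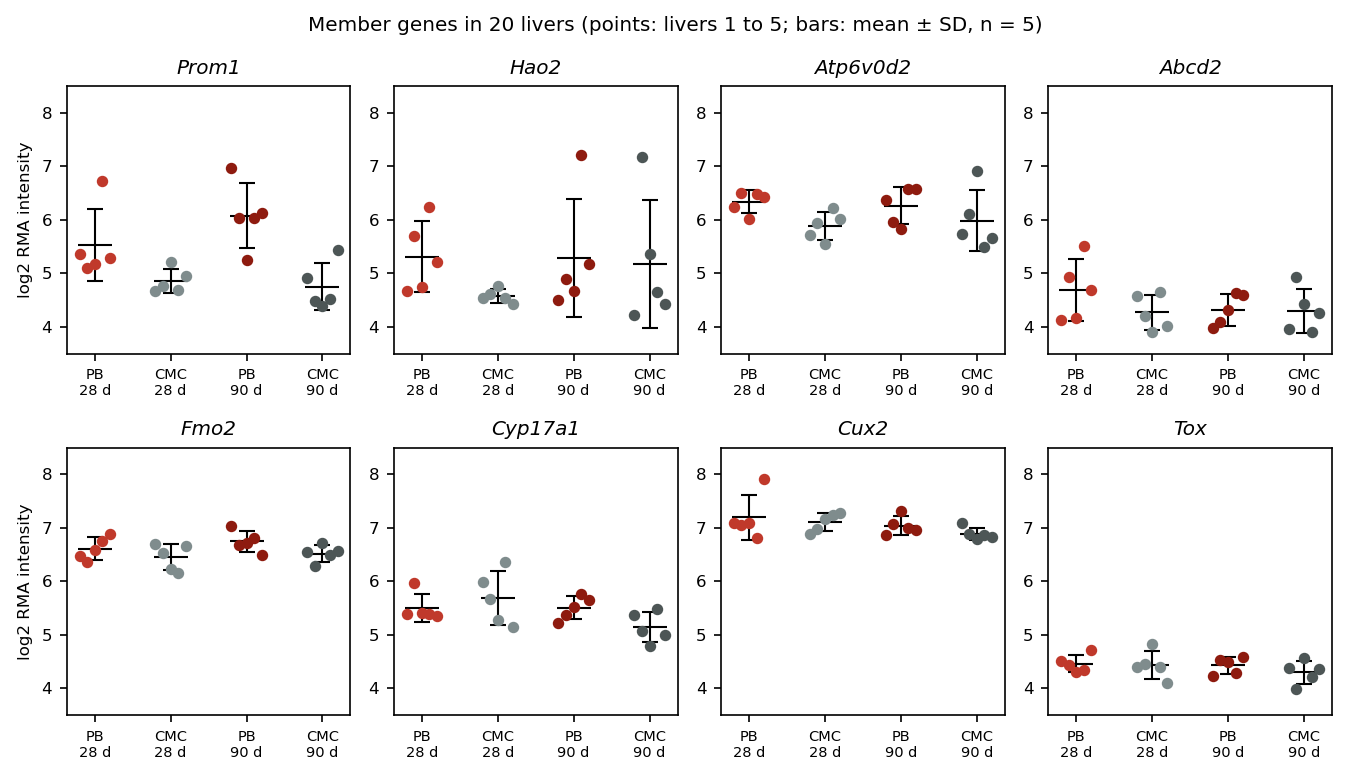
Levels of the 8 measured genes in each of the 20 livers, by their brightest probe set, as log2 RMA intensity (vertical axis, the same in all panels) in the PB and CMC groups at 28 and 90 days. Points are livers 1 to 5 from left to right and bars are the mean ± SD; Prom1 lay highest in PB livers at 90 days (5.24 to 6.96), and Hao2 had single livers above 7 in both 90-day groups.

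Prom1, which encodes prominin-1 (CD133), a cholesterol-binding glycoprotein of membrane protrusions and a marker of progenitor and bile duct cells, had the largest difference of the members at 90 days. It read 6.96, 6.02, 5.24, 6.03 and 6.12 in the 5 PB livers at 90 days, against 4.92, 4.48, 4.39, 4.52 and 5.44 in the CMC livers. Of the PB livers 4 lay above every CMC liver, and replicate 3, one of the arrays that stood apart, lay within their range. The difference was 1.32 ± 0.30 log2 units (SE), 2.5-fold with a 95% interval of 1.63 to 3.85, and it was not called (limma, adjusted p = 0.229).

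At 28 days Prom1 read 5.37, 5.09, 5.17, 6.73 and 5.28 in PB livers, against 4.67, 4.77, 5.21, 4.69 and 4.95 in CMC livers. PB replicate 4 stood far above the rest, and 3 of 5 PB livers lay above every CMC liver. The difference was 0.67 ± 0.30 log2 units (adjusted p = 1.0), and 0.37 without PB replicate 4.

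For the mean of both durations Prom1 gave 0.997 ± 0.21 log2 units, 2.0-fold with an interval of 1.47 to 2.71 (limma, adjusted p = 0.104). Without the 2 arrays that stood apart it gave 1.13 and was called (adjusted p = 0.0267), as it was without PB replicate 3 at 90 days alone (1.10, adjusted p = 0.0272). The 90-day difference itself was called without PB replicate 4 of the 28-day group (adjusted p = 0.0396), a removal that left the difference at 1.32 and narrowed the shared spread. Group means ran from 6.07 ± 0.61 in PB livers at 90 days through 5.53 ± 0.68 in PB livers at 28 days to 4.86 ± 0.22 and 4.75 ± 0.44 in CMC livers at 28 and 90 days. The difference in effect between the durations was 0.65 ± 0.42 and was not called (adjusted p = 1.0). The step between the 2 PB groups was not tested.

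Bile duct markers were set beside Prom1. Of 6 listed, 5 were measured (Krt7, Krt19, Epcam, Sox9 and Cftr), and Krt7 and Cftr lay less than 0.5 log2 units above background or below it. Their mean level ran from 4.66 to 4.84 in PB livers and from 4.54 to 4.93 in CMC livers at 90 days, and from 4.54 to 4.73 in PB livers and 4.46 to 4.83 in CMC livers at 28 days. The list's median change was 0.03 at 90 days and -0.03 at 28 days. Limma called 0 of the 5 at either duration. At 90 days 1 (Cftr, 0.20) was higher at an unadjusted p under 0.05, where 3.28% of all genes were. The median hid a split at 28 days, where Krt19 (0.27) and Epcam (0.21) were positive and the other 3 negative. At 90 days Krt19 and Epcam changed by 0.03 each, and Krt19 by -0.03 without PB replicate 3.

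Hao2, a peroxisomal oxidase of long-chain hydroxy acids, varied most between livers, over 2.99 log2 units. At 28 days it read 4.67, 5.70, 4.73, 6.25 and 5.22 in PB livers, against 4.54, 4.61, 4.76, 4.53 and 4.43 in CMC livers. The CMC livers were close together and 3 PB livers lay above them all. The difference was 0.74 ± 0.50 log2 units, with a 95% interval from -0.30 to 1.77 (limma, adjusted p = 1.0). At 90 days it read 4.51, 4.89, 4.68, 7.21 and 5.17 in PB livers, against 4.22, 7.17, 5.36, 4.65 and 4.43 in CMC livers. Here 1 liver of each group stood above 7 and the groups overlapped widely. The difference was 0.13 ± 0.50 (adjusted p = 0.959), -0.35 without PB replicate 4 and 0.63 without CMC replicate 2.

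Atp6v0d2, the d2 subunit of the vacuolar proton pump, known from osteoclasts and macrophages, read 6.23, 6.51, 6.01, 6.49 and 6.43 in PB livers at 28 days, against 5.71, 5.94, 5.56, 6.21 and 6.02 in CMC livers. All but 1 PB liver lay above every CMC liver. The difference was 0.45 ± 0.23 log2 units, 1.36-fold with an interval of 0.985 to 1.89 (adjusted p = 1.0). At 90 days PB livers ran from 5.83 to 6.58 and CMC livers from 5.50 to 6.91, with a difference of 0.28 ± 0.23 (adjusted p = 0.857). That difference was 0.51 without CMC replicate 3 (6.91) and 0.16 without CMC replicate 4, and was not called in either case (adjusted p = 0.953 and 0.926). The second probe set gave 0.64 ± 0.30 at 28 days and 0.36 ± 0.30 at 90 days, in the same direction. Its highest PB liver at 28 days, 6.52, was replicate 5, on an array that stood apart, and without it the difference was 0.35. At 90 days it was 0.14 without PB replicate 4 and 0.56 without PB replicate 2. For the mean of both durations the 2 probe sets gave 0.36 ± 0.16 and 0.50 ± 0.21 (both adjusted p = 0.762). The 7 macrophage markers had a mean level of 8.44 to 9.24 in PB livers and 8.08 to 9.28 in CMC livers at 28 days, and of 7.59 to 8.79 in PB livers and 7.62 to 8.90 in CMC livers at 90 days. Their median change was 0.15 at 28 days and -0.28 at 90 days.

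Abcd2, which carries very long-chain acyl-CoA into peroxisomes, read 4.13, 4.93, 4.17, 5.52 and 4.70 in PB livers at 28 days, against 4.57, 4.20, 3.90, 4.65 and 4.01 in CMC livers. The 3 PB livers above every CMC liver were replicates 2, 4 and 5, the same 3 as for Hao2. Replicate 5, on an array that stood apart (background 4.26), passed the highest CMC liver narrowly, at 4.70 against 4.65 (background 4.01). Between the group means the difference was 0.42 ± 0.24 log2 units (adjusted p = 1.0), and 0.22 without PB replicate 4 (5.52). At 90 days the difference was 0.02 ± 0.24, with an interval from -0.48 to 0.53. Its sign turned in 6 of 33 other settings, and single removals gave between -0.07 (without CMC replicate 4) and 0.18 (without CMC replicate 2). Of its other probe sets at 28 days, 1 gave 0.39 ± 0.13, and the other 2, dimmer than background in vehicle livers, gave -0.10 each.

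Fmo2, a flavin monooxygenase, had 6.61 ± 0.21 in PB livers and 6.45 ± 0.24 in CMC livers at 28 days, and 6.74 ± 0.19 in PB livers and 6.52 ± 0.16 in CMC livers at 90 days. The groups overlapped at both times. The differences were 0.16 ± 0.15 and 0.23 ± 0.15 log2 units, and the upper ends of their intervals were 1.38-fold and 1.45-fold. The first was 0.09 without PB replicate 5, an array that stood apart, and 0.09 without CMC replicate 4. Its other 4 probe sets ran from 0.05 to 0.14 at 28 days and from -0.25 to 0.02 at 90 days. The 3 measured adipocyte markers, of a cell type known to express Abcd2, had a median change of 0.14 at 28 days and 0.21 at 90 days, and Adipoq and Cidec lay less than 0.5 log2 units above background or below it.

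Cyp17a1, a steroid hydroxylase and lyase, had differences of opposite sign at the 2 durations, neither of them called. It read 5.39, 5.97, 5.4, 5.39 and 5.34 in PB livers at 28 days, against 5.98, 5.67, 5.28, 6.35 and 5.14 in CMC livers. At 90 days it read 5.22, 5.37, 5.51, 5.75 and 5.66 in PB livers, against 5.36, 5.06, 4.79, 5.48 and 5.00 in CMC livers. The PB groups had the same mean, 5.50, while the CMC mean was 5.14 ± 0.28 at 90 days and 5.68 ± 0.50 at 28 days. The PB differences were -0.18 ± 0.20 and 0.36 ± 0.20 log2 units (adjusted p = 1.0 and 0.857). The first was -0.02 without CMC replicate 4 (6.35), -0.11 without CMC replicate 1, -0.29 without CMC replicate 3, -0.30 without PB replicate 2 and -0.32 without CMC replicate 5. The second lay between 0.28 and 0.45 over the single removals, and the difference between them was 0.55 ± 0.28 (adjusted p = 1.0). Vehicle livers differed by -0.55 ± 0.20 between 90 and 28 days (adjusted p = 0.709), the largest such difference downward among the member probe sets and the 1 of 20 that was lower at an unadjusted p under 0.05, where 3.51% of all probe sets were. The 1 that was higher, where 2.05% of all were, was a dimmer probe set of Fmo2, chosen here after its values were seen. It read 4.92, 5.14, 5.88, 4.87 and 5.09 in CMC livers at 90 days, against 4.33, 4.71, 4.41, 4.67 and 4.54 in CMC livers at 28 days, without overlap (0.65 ± 0.23, adjusted p = 0.709). Without overlap 0.881% of all probe sets were higher and 0.928% lower in that comparison.

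Cux2 and Tox differed little at either duration. By its brightest probe set Cux2 had 7.19 ± 0.42 in PB livers and 7.11 ± 0.17 in CMC livers at 28 days, and 7.04 ± 0.17 in PB livers and 6.89 ± 0.11 in CMC livers at 90 days. The differences were 0.09 ± 0.17 and 0.15 ± 0.17 log2 units, with upper ends at 1.36-fold and 1.42-fold. The first rested on PB replicate 5 (7.92, where the other 4 PB livers lay between 6.81 and 7.09), an array that stood apart, and was -0.10 without it. The second was 0.08 without PB replicate 3, the other such array. The other 2 Cux2 probe sets gave 0.00 and 0.14 at 28 days and 0.15 and 0.16 at 90 days. Tox had 4.46 ± 0.17 in PB livers and 4.44 ± 0.26 in CMC livers at 28 days, and 4.43 ± 0.16 in PB livers and 4.30 ± 0.22 in CMC livers at 90 days. Its difference at 28 days, 0.02, was -0.04 without PB replicate 5 and between -0.06 and 0.12 over the single removals, and at 90 days it was 0.05 without CMC replicate 2. Its 3 probe sets did not share a sign at 90 days, with 0.13, -0.02 and -0.32, and the last had an interval from -0.64 to 0.01.

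**Figure D2:**
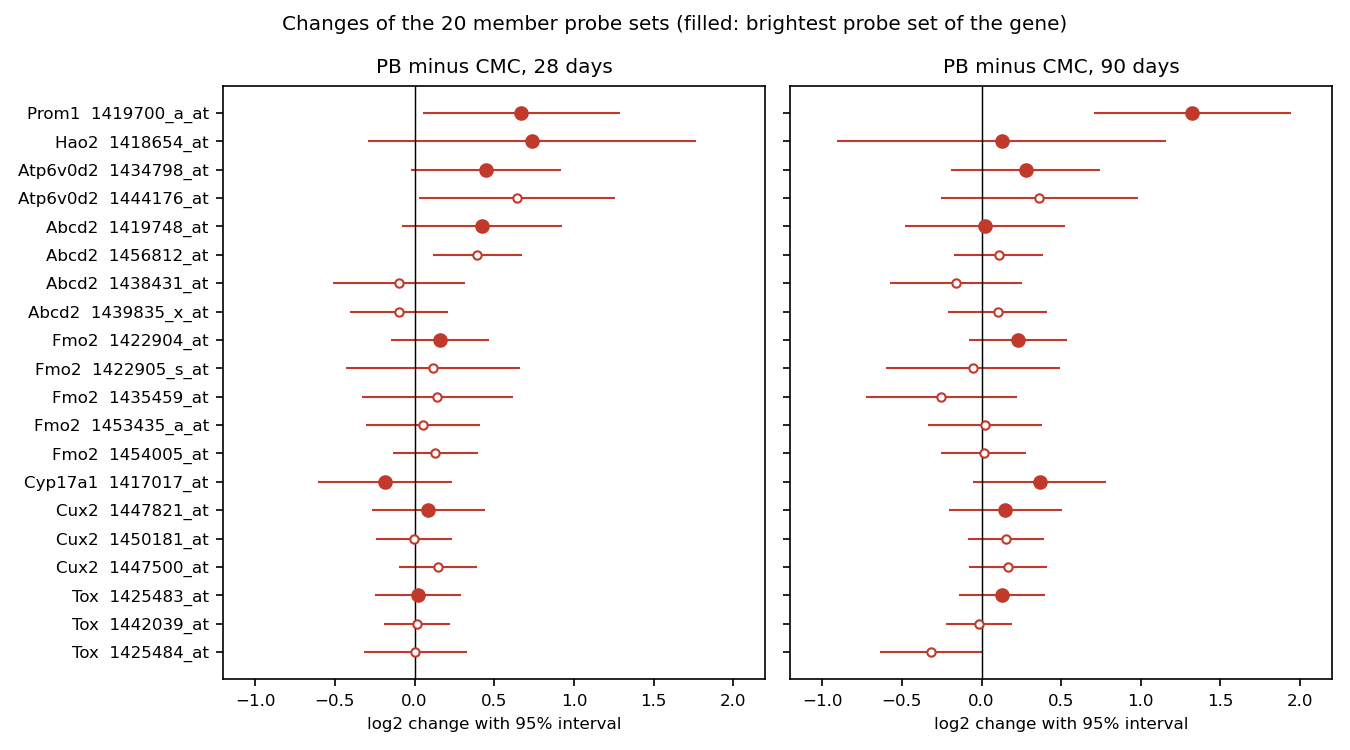
Change of each of the 20 member probe sets, PB minus CMC in log2 units with its 95% interval from the model (horizontal axes), at 28 days (left) and 90 days (right); filled points are the brightest probe set of each gene. Prom1 at 90 days stood farthest from 0, at 1.32 (interval 0.70 to 1.94).

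Counted by 1 probe set a gene, the 8 members leaned upward under PB as a group. At 28 days 7 of 8 were positive, with a median of 0.29 log2 units, where 51.2% of all 18193 genes were positive with a median of 0.00. At 90 days 8 of 8 were positive, with a median of 0.19, where 58.1% of all genes were positive with a median of 0.04. For the mean of both durations the median was 0.21 with 8 of 8 positive, and 0.03 over all genes. An upward lean was not particular to the members. Of 40 measured markers of other cell types, 30 were positive at 28 days and 28 at 90 days, with medians of 0.09. Both treated groups have vehicle groups of their own, so the 2 durations share no livers. In vehicle livers at 90 against 28 days 4 of 8 were positive, with a median of -0.04, and -0.03 over all genes. With all 20 probe sets the medians were 0.12 at both durations, with 16 and 15 positive, and over all 45037 probe sets they were 0.01 at 28 days and 0.03 at 90 days. Without the 2 arrays that stood apart, 5 of 8 genes were positive at 28 days with a median of 0.26, and 8 of 8 at 90 days with a median of 0.26. The 8 of 8 at 90 days fell to 6 of 8 without CMC replicate 1, CMC replicate 4 or PB replicate 4 of that duration, and when the probe sets of a gene were averaged. The members were chosen with results of these data known, and the lean was given no test.

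The lean was not shared evenly by the livers. At 28 days PB replicates 4 and 5 had 5 and 6 of the 8 members above every CMC liver of that duration, replicates 1 and 2 had 2 and 3, and replicate 3 had 0. Over all genes the share above every CMC liver was 13.0% in replicate 4 and 36.3% in replicate 5, and between 11.3% and 14.3% in the other 3. Replicate 4, whose share over all genes was not raised, was high for Abcd2, Atp6v0d2, Fmo2, Hao2 and Prom1 and the lowest of the livers of that duration for Cux2. At 90 days the members above every CMC liver numbered 2, 1, 3, 4 and 3 in replicates 1 to 5, with 17.9%, 17.9%, 41.5%, 31.6% and 20.3% of all genes. Prom1 was among them in replicates 1, 2, 4 and 5, and Cyp17a1 in replicates 3, 4 and 5.

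**Figure D3:**
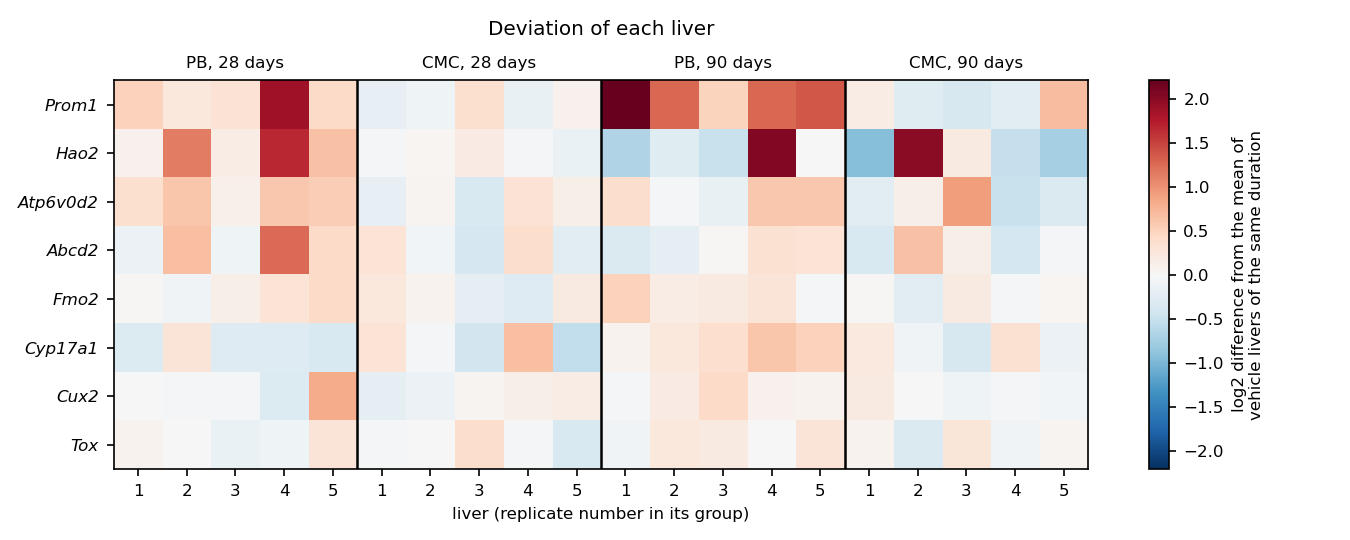
Deviation of each of the 20 livers (columns, by replicate number within its group) from the mean of the vehicle livers of the same duration, in log2 units by colour, for the 8 measured members (rows). PB replicate 4 at 28 days was high for Prom1, Hao2 and Abcd2 together, and CMC replicate 2 at 90 days for Hao2 and Abcd2.

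**Figure D4:**
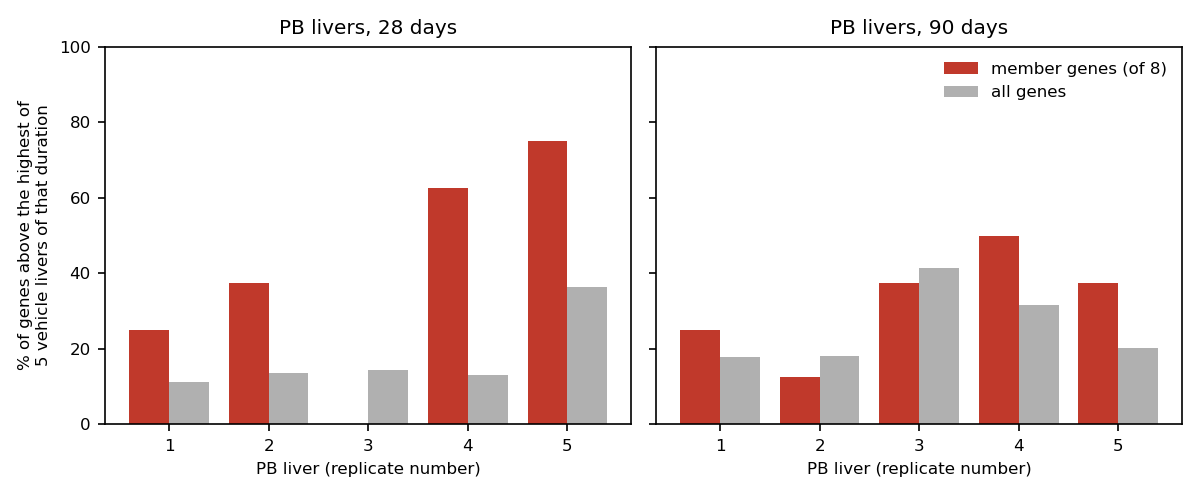
Share of genes above the highest of the 5 vehicle livers of the same duration (vertical axis, %) in each PB liver, for the 8 members and for all 18193 genes. At 28 days the member share was 6 of 8 in replicate 5, where 36.3% of all genes were above too, and 5 of 8 in replicate 4, where 13.0% were.

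The genes whose level most resembled the mean of the 8 members over the 20 livers, each member scaled by its SD, were Sult1c2 (Pearson r = 0.84, n = 20 livers), Lamp2 (0.81), Cyp3a11 (0.81), Stard6 (0.80) and Mrnip (0.80). These are the 5 highest of all genes and are given as a description, since the livers share groups and array quality. Sult1c2, a sulfotransferase, had 7.54 to 8.12 in PB livers and 5.60 to 7.66 in CMC livers at 28 days, and 7.52 to 8.84 in PB livers and 5.79 to 7.54 in CMC livers at 90 days. Its lowest PB liver lay within the CMC range at each time.

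The growth hormone pathway itself was read from 19 measured genes of 21 listed. Limma called 0 of them at either duration, and at an unadjusted p under 0.05 it found 0 higher and 1 lower (Socs3) at 28 days, and 0 in either direction at 90 days. Over all genes, 1.74% were higher and 0.89% lower by that rule at 28 days, and 3.28% higher and 1.24% lower at 90 days. Of the 19, 5 were positive at 28 days and 4 at 90 days, with medians of -0.08 and -0.30 log2 units. Some signs hung on the 2 arrays that stood apart. Without PB replicate 5 at 28 days, Ghr went from -0.08 to 0.08 and Bcl6 from -0.03 to 0.11. Without PB replicate 3 at 90 days, Bcl6 went from -0.03 to 0.56. In the same removals Stat5b went from 0.01 to 0.42 and from 0.03 to 0.37. Socs3 and Igf1 kept their signs. The list's counts and medians were not taken without these arrays. The gene with the smallest p at each time was Socs3, an inhibitor of cytokine receptor signalling. It read 6.89, 6.35, 6.69, 6.83 and 3.64 in PB livers at 28 days, against 6.02, 7.96, 7.28, 6.58 and 10.31 in CMC livers, and differed by -1.55 ± 0.73 (adjusted p = 1.0). At 90 days it read 6.94, 7.09, 6.08, 6.11 and 6.40 in PB livers, against 6.53, 6.79, 7.81, 9.20 and 9.62 in CMC livers, and differed by -1.47 ± 0.73 (adjusted p = 0.857). At 28 days 1 CMC liver was far above the rest, and PB replicate 5, on an array that stood apart, was far below. The 28-day difference was -0.94 without PB replicate 5 and -0.88 without CMC replicate 5. At 90 days 2 CMC livers were far above the rest. Igf1, the main hepatic product of growth hormone action, read 13.02, 12.95, 12.95, 13.03 and 12.95 in PB livers at 90 days, against 13.05, 13.10, 13.08, 13.28 and 13.22 in CMC livers. Every PB liver lay below every CMC liver, where 0.385% of all genes were lower without overlap, but the difference was only -0.17 ± 0.09 log2 units and was not called (adjusted p = 0.857). Igf1 was singled out after its values were seen.

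Other sex-biased genes were counted beside the members. Of 22 measured female-biased genes (30 listed), 16 were positive at 28 days (median 0.33) and 13 at 90 days (median 0.32). At 28 days limma called 0 of them, with 5 higher (Sult1e1, Cyp2b13, Cyp2b9, Gstt3 and Gstm3) and 1 lower (Rdh9) at an unadjusted p under 0.05, named here because they were few. Among them Sult1e1, the oestrogen sulfotransferase, had the smallest p (1.90 ± 0.36, adjusted p = 0.101). At 90 days 7 were higher and 2 lower at an unadjusted p under 0.05, and 2 of the 7 rose past the adjusted threshold, Sult1e1 (4.71 ± 0.36, adjusted p = 3.88e-07) and the P450 gene Cyp2b13 (3.82 ± 0.56, adjusted p = 0.00357). By the unadjusted rule 1.74% of all genes were higher and 0.89% lower at 28 days, and 3.28% higher and 1.24% lower at 90 days. Among PB livers Cyp2b13 was lowest in replicate 5 at 28 days (5.91) and replicate 3 at 90 days (6.99). Cyp2b10 was lowest in the same livers (9.03 and 10.54), whose arrays stood apart. Sult1e1 was lowest in replicate 4 at 28 days (4.36) and replicate 1 at 90 days (7.71). The part of the receptor in the rises of Sult1e1 and Cyp2b13 was not tested. Of 21 measured male-biased genes that pulses hold up (26 listed), 7 were positive at each duration, with medians of -0.15 and -0.10. Limma called 0 of these, and the smallest p belonged to Cyp2c29, a P450 that phenobarbital is also known to induce, with 0.44 ± 0.12 at 28 days (adjusted p = 1.0) and 0.25 ± 0.12 at 90 days (adjusted p = 0.857). At an unadjusted p under 0.05, 1 was higher (Cyp2c29) and 1 lower (Nat8) at 28 days, and 0 in either direction at 90 days. Of 10 measured genes of the receptor and its usual targets (11 listed), 4 rose at 28 days and 5 at 90 days, led by Cyp2b10 (4.90 ± 0.62 and 5.88 ± 0.62) and Cyp2c55 (5.35 ± 0.30 and 5.18 ± 0.30). The share called was 0.044% of all genes at 28 days and 0.104% at 90 days.

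Among markers of other cell types, limma called 0 of 40 measured genes at either duration, with 1 higher (Csf3r) and 0 lower at an unadjusted p under 0.05 at 28 days. At 90 days 3 were higher (Cftr, Col1a1 and Col3a1) and 2 lower (Cd5l and Marco). By that rule 1.74% of all genes were higher and 0.89% lower at 28 days, and 3.28% higher and 1.24% lower at 90 days. Over the 40 the median change was 0.09 at both durations, with 30 positive at 28 days and 28 at 90 days. For the lists not given above, the median change at 28 and 90 days was 0.04 and 0.10 for sinusoidal endothelium, 0.11 and 0.20 for stellate cells and fibroblasts, 0.13 and 0.14 for lymphocytes, 0.20 and 0.02 for neutrophils, -0.02 and 0.09 for pancreatic acinar cells and -0.04 and -0.05 for hepatocytes. Of these lists hepatocytes had a negative median at both durations and acinar cells at 28 days. The part of other cell types in the members' values was not tested.

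In vehicle livers the growth hormone pathway list lay higher at 90 than at 28 days, with 16 of 19 genes positive and a median of 0.44 log2 units. Limma called 0 of the 19, and 0 passed an unadjusted p under 0.05, where 1.75% of all genes were higher and 3.73% lower. The male-biased list had 17 of 21 positive with a median of 0.17, and the female-biased list 11 of 22 with a median of -0.05. On the first principal component the CMC livers at 90 days scored between 11.6 and 58.5, while CMC replicates 1 and 3 at 28 days scored -56.7 and -53.0, and its part in the lists' values was not tested.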

How the data were processed

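Liver RNA of 20 mice was measured on 20 Affymetrix 3' arrays. The submitters' processing notes name RMA as the method by which the authors made the deposited log2 values, which were used unchanged. RMA compresses differences near background. No RMA version or genome build was stated. Groups and replicate numbers came from the sample titles. Probe sets were named from the platform annotation of 2016: 34945 had 1 symbol, 932 several and 9160 none, and 0 symbols changed on update. The brightest probe set over all arrays stood for a gene.

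Limma 3.58.1 (R 4.3.3) fitted group means over all 45037 probe sets, unfiltered, with an intensity trend and 16 residual degrees of freedom. P-values were two-sided and adjusted by Benjamini-Hochberg over all probe sets, and called under 0.05. Errors of changes are standard errors, and group values are means ± SD. Mice were separate animals, and 5 per group set the precision. The members and lists were chosen with earlier results of these data known. By rule, genes named outside the members were up to 2 called per list with the largest change, or the one with the smallest p. The rule also named Cyp2b10 and the 5 most alike. Ghr, Stat5b, Bcl6, Igf1, Krt19 and Epcam were picked outside this rule, as were genes named only for an unadjusted p under 0.05. The fit was also run on simulated data made from shuffled residuals of these arrays, and the outcome is not given here. The shuffling did not keep the 2 arrays that stood apart in their groups. Replicate numbers were not treated as pairs in the main fit. At most 2 of 5 same-numbered pairs correlated above 0.1 in any pair of groups, which cannot exclude shared handling. Alternatives were 33 settings, 20 of them leaving out 1 array. Figures used Python 3.11.15 and matplotlib 3.10.9.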

Additional observations from a re-analysis of the deposited data

Results flagged for a closer look

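Within groups of 5 livers, 7 of 80 sets of member values held a liver far from the other 4. Chance gives about 1 in 20 for independent sets, but these share genes and arrays, so no excess can be read. Prom1 was 6.73 in PB replicate 4 at 28 days, against 5.09 to 5.37 in the other 4. Hao2 was 7.21 in PB replicate 4 at 90 days, against 4.51 to 5.17. Cyp17a1 was 5.97 in PB replicate 2 at 28 days, against 5.34 to 5.4. PB replicate 5 at 28 days, one of the arrays that stood apart, was high for the brightest Cux2 probe set (7.92, against 6.81 to 7.09) and for the dimmest Fmo2 probe set (4.56, against 3.87 to 4.01). CMC replicate 3 at 90 days was high for another dim Fmo2 probe set (5.88, against 4.87 to 5.14) and the dimmest Tox probe set (4.82, against 4.17 to 4.35).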

How the results depend on the processing

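The number of member probe sets called stayed at 0 at 28 days, for the difference between durations and for vehicle livers in every setting that was run. At 90 days it ran from 0 to 1 on leaving out single arrays and was 0 in the other settings. For the mean of both durations it ran from 0 to 1 on leaving out single arrays, and was 1 with array weights (Prom1, adjusted p = 0.0471), with centring on the 75th percentile (1, 0.0257), without the 2 arrays that stood apart (1, 0.0267) and with the first principal component as a covariate (1, 0.0240). With the replicate number as a block it was 0, and Prom1 gave adjusted p = 0.185. The change of Prom1 at 90 days lay between 1.10 and 1.53 in all settings. Of the brightest probe sets, signs turned at 28 days for Tox in 6 and Cux2 in 3 of 33 settings, and at 90 days for Abcd2 in 6, Hao2 in 4 (lowest -0.35), Fmo2 in 1 and Tox in 1. They did not turn for Prom1 or Atp6v0d2. The median of the members kept its sign in all settings, between 0.14 and 0.35 at 28 days, 0.14 and 0.29 at 90 days and 0.10 and 0.28 for the mean of both. The lowest came from averaging a gene's probe sets at 28 days and for the mean of both, and from centring on the 25th percentile at 90 days, an alternative chosen after seeing the data. Between 5 and 7 of the 8 members were positive at 28 days, 6 and 8 at 90 days and 7 and 8 for the mean of both. The counts of members above every CMC liver depended on centring. Summed over the PB livers, they lay between 11 and 16 at 28 days over the 2 centring alternatives. At 90 days they lay between 9 and 16. Over all probe sets, 11 were called at 28 days, but 19 with array weights, 21 with the component as a covariate and 6 when only the groups compared were fitted. The covariate gave 38 at 90 days, against 23, and 68 for the mean of both, against 43. The causes were not tested. Dim probe sets limit some of the sizes given: 2 of 4 Abcd2 probe sets lay below background in vehicle livers. The background correction of RMA and the slide could not be varied from the deposited values, and fitting only the groups compared does not apply to the mean of both durations or to the difference.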
